A study of Arabidopsis lyrata subsp. lyrata with 8 samples.

Results

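Potassium and sodium channels and transporters were examined on expression arrays of root and of flower bud from A. lyrata ssp. lyrata, a wild Arabidopsis related to A. thaliana. The genes were chosen by name: a gene model belonged to the group if its name on the array contained the A. thaliana locus code of HAK5, AKT1, AKT2, SPIK, KAT1, SKOR, GORK or HKT1. Of these 8 codes, 3 occurred, each in 1 of the 32386 gene models of the array: HKT1 (AT4G10310, model fgenesh2_kg.6__3008__AT4G10310.1), AKT2 (AT4G22200, model fgenesh2_kg.7__2078__AT4G22200.1) and KAT1 (AT5G46240, model fgenesh2_kg.8__166__AT5G46240.1). The codes of HAK5 and AKT1, the transporter and the channel of potassium uptake at the root surface in A. thaliana, were in no model name, and neither were those of SKOR, an outward channel of the stele, GORK, an outward channel of guard cells and root hairs, and SPIK, the inward channel of pollen. These 5 genes are not analysed here, so uptake and pollen genes of the group could not be contrasted with HKT1, the gene left for the stele. Other genes of potassium and sodium transport are described below as context and do not replace that contrast. A code stood in the name of 38.3% of the models, and an A. lyrata counterpart without a code cannot be recognised by this rule.

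The groups were roots and flower buds, both untreated, of plants 6 weeks old that came from seed stratified for 7 days on 0.65% agar and were grown in hydroponic culture. Each tissue had 4 replicates, and each replicate was tissue pooled from 8 to 10 plants. The label gives "col 0" beside the species, without further explanation. Total RNA was labelled with 1 dye, Cy3, and hybridised to 1 of the 8 arrays of a custom Agilent slide.

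Plant cells take up potassium through high-affinity transporters of the KUP/HAK/KT family and through voltage-gated Shaker channels, which are assembled from several subunits and open inward, outward or weakly in both directions. Inside the plant, outward channels of the stele load potassium into the xylem, weakly rectifying channels move it in the phloem, and inward channels of guard cells admit it when stomata open. HKT1 carries sodium, and in A. thaliana it withdraws sodium from the xylem sap and so limits its passage to the shoot. These roles are those known from A. thaliana and were not measured here.

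The difference between flower bud arrays 1 and 2 did not exceed the scatter of repeated spots (0.777 of the variance that scatter gives), and neither did that between flower bud arrays 3 and 4 (0.919). Each pair was counted as 1 sample, A for arrays 1 and 2 and B for arrays 3 and 4, so that 4 root samples were set against 2 flower bud samples. Root replicate 4 stood apart from the other roots, with ratios of the same kind of 18.2 to 23.9, against 5.67 to 11.5 among root replicates 1 to 3. Root arrays had 73.0% to 75.2% of their spots well above background, flower bud arrays had 78.9% to 80.5%, and saturation affected 0 spots. The tissues lay in different rows of the slide, and an effect of the row cannot be told apart from one of the tissue. Of the marker genes of the tissues, 3 of 3 measured for the root epidermis and 3 of 3 for the endodermis were higher in root, and 3 of 3 for floral organs and 6 of 6 for pollen were higher in flower bud. Neither the floral regulator AP1 on any root array nor the root peroxidase PER7 on any flower bud array reached a signal well above background.

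A level below is the log2 of the background-subtracted signal relative to the 75th percentile of all non-control spots of the same array. A level of 0 therefore means a signal equal to that percentile, and levels are compared between tissues for 1 probe, never between probes. A fold change is the difference of levels, root minus flower bud, with its standard error and n = 4 root and 2 flower bud samples. The call required 2-fold or more and, in limma, a p under 0.05 after Benjamini-Hochberg adjustment over the 26420 gene models tested. At this threshold 51.3% of the models tested were called, made up of 24.2% for root and 27.1% for flower bud, and the median model lay at 0.0039. Nothing in the labels says whether the pools shared a culture, so the p-values cover only the variation among these samples, which may be technical.

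Of the 3 genes, AKT2 and KAT1 were higher in flower bud, 0 were higher in root, and HKT1 was called in neither direction. With 27.1% of all models higher in flower bud, 2 of 3 is a count of named genes and not a result about the group. The probes of all 3 genes were well above background on all 8 arrays, so every level given for these 3 was measured and none is a bound. In bulk tissue, fewer cells of a type and less RNA per cell cannot be told apart.

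HKT1, the sodium transporter, had similar mean levels in both tissues and was not called. Its levels were 2.36, 2.53, 2.28 and 2.33 in root replicates 1 to 4, and 2.82, 2.76, 2.06 and 2.13 on flower bud arrays 1 to 4. The root values fell between those of flower bud sample A, at 2.79, and sample B, at 2.10, so the tissues overlapped. The mean was 2.37 ± 0.11 in root (SD, n = 4) and 2.44 ± 0.49 in flower bud (SD, n = 2).

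The fold change of HKT1 was -0.07 ± 0.21 (limma adjusted p = 0.780), with a 95% interval from -0.58 to 0.44. The interval leaves out a 2-fold difference in either direction at this scaling. The fit gives both tissues a common variance, whereas the SD was 0.11 in root and 0.49 in flower bud. With 2 flower bud samples, the interval may therefore be too narrow. Scaling to the spike-in RNAs put the median of all models at -0.71 and HKT1 at -0.78 (adjusted p = 0.147, with 0.105 to 0.895 over the 19 alternative settings), and its interval then ran from -1.72 to 0.16. That scaling moves every model by the same amount, so the distance of HKT1 from the median of all models, -0.07, is the same by construction. With quantile normalization, which can change that distance, it was -0.41, and -0.39 with normexp background correction added; HKT1 itself was then at -0.31 and -0.30 and not called. Its sign turned when arrays were set to equal medians, at 0.18, and without flower bud sample A, at 0.28.

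HKT1 was the 1 gene of the 3 with 2 spots on each array. The processed signals of its spots were 22814 and 23014 in root replicate 1, and 34494 and 37823 on flower bud array 1. In root replicate 4, the array with the lowest signals, they were 12157 and 13373. The raw signal of a spot was 557 to 960 times its local background on root arrays and 745 to 1527 times on flower bud arrays, which puts the probe far above background in both tissues. The spread among roots was small, with an SD below that of all but 13.2% of the models tested. Sample B was below sample A by 0.69, a difference more negative than that of all but 2.84% of the models tested.

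AKT2, the weakly rectifying Shaker channel of the phloem, was 36.2-fold higher in flower bud. Its levels were -3.07, -3.70, -3.67 and -2.85 in root replicates 1 to 4, and 2.08, 1.98, 1.71 and 1.64 on flower bud arrays 1 to 4. Every flower bud array lay above every root array. The mean was -3.32 ± 0.42 in root (SD, n = 4) and 1.85 ± 0.25 in flower bud (SD, n = 2).

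The fold change of AKT2 was -5.18 ± 0.29 (limma adjusted p = 8.15e-06), with a 95% interval from -5.88 to -4.48. The spot of AKT2 had processed signals of 531, 278, 233 and 351 in root replicates 1 to 4, and 21675, 20092, 15760 and 15375 on flower bud arrays 1 to 4. Its raw signal was 12.2 to 21.0 times the local background on root arrays, so the low root values were not at background. In all 19 alternative settings it stayed called, between -5.89 and -4.86, with adjusted p of at most 1.65e-04.

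KAT1, the inward Shaker channel of guard cells, was 18.9-fold higher in flower bud. Its levels were -3.95, -4.33, -4.34 and -5.71 in root replicates 1 to 4, and -0.61, -0.74, -0.02 and 0.0032 on flower bud arrays 1 to 4. The groups did not overlap, and root replicate 4 was the lowest of the roots. The mean was -4.58 ± 0.77 in root (SD, n = 4) and -0.34 ± 0.47 in flower bud (SD, n = 2).

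The fold change of KAT1 was -4.24 ± 0.50 (limma adjusted p = 3.20e-04), with a 95% interval from -5.45 to -3.04. Its raw signal was 14.2, 9.56 and 7.26 times the local background in root replicates 1 to 3 and 3.65 times in root replicate 4, against 119 to 169 times on flower bud arrays. Without root replicate 4 the fold change was -3.87 (adjusted p = 5.06e-05). Among the settings it lay between -4.95 under spike-in scaling and -3.63 with normexp background correction and quantile normalization, and it stayed called in all 19, with adjusted p of at most 0.00389.

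**Figure D1:**
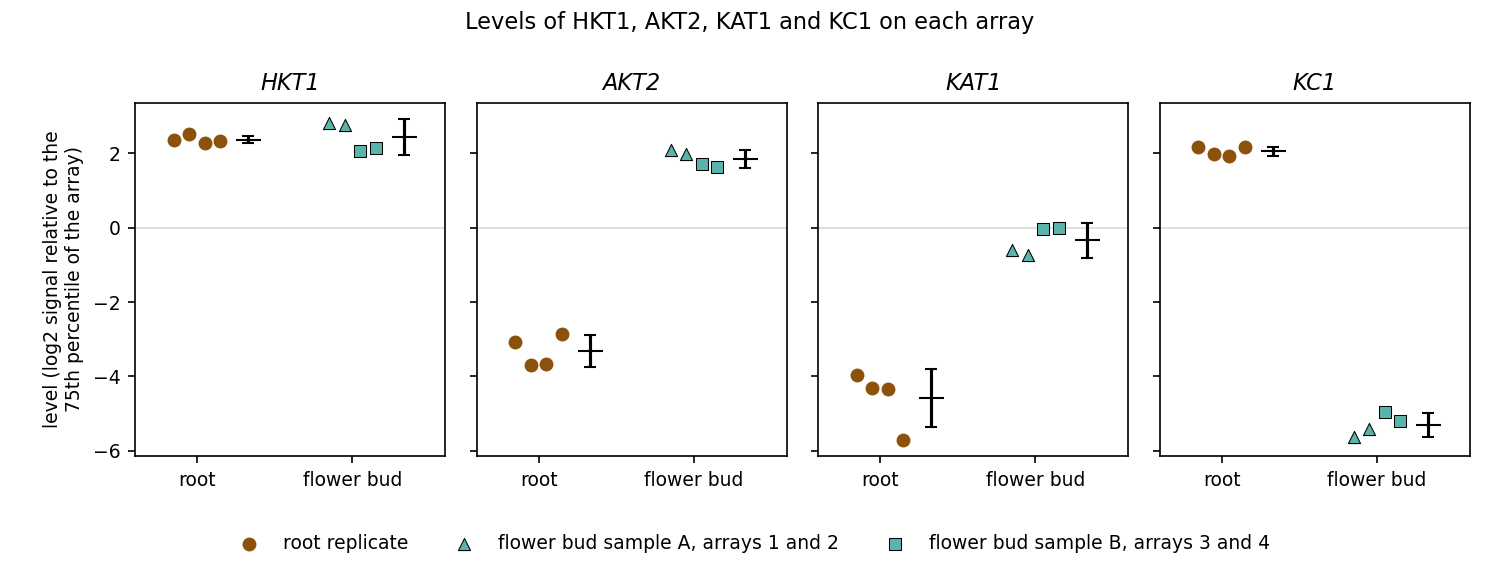
Levels (log2 signal relative to the 75th percentile of the array) of HKT1, AKT2, KAT1 and KC1 on each array, with root replicates as circles left and flower bud arrays right, as triangles for sample A and squares for sample B; black marks are means ± SD (n = 4 root and 2 flower bud samples). HKT1 overlaps between tissues, AKT2 and KAT1 are higher on every flower bud array, and KC1, at 2.06 in root against -5.30 in flower bud, is higher on every root array.

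The 3 genes did not move together in root replicate 4 or between the flower bud samples. Over root replicates 1 to 3, AKT2 and KAT1 were both highest in replicate 1 and HKT1 was highest in replicate 2. In root replicate 4, AKT2 was above the mean of root replicates 1 to 3 by 0.62, HKT1 was at -0.06 relative to it, and KAT1 was below it by more than all but 1.85% of the models tested were. Between the flower bud samples, B minus A was 0.66 for KAT1, -0.35 for AKT2 and -0.69 for HKT1. With 2 flower bud samples these differences have no test. Over the same samples, the measured tapetum markers all stood higher in B. A9 was at -0.71 in A and 1.53 in B, and MS1 at -6.99 in A and -1.73 in B. B minus A was 1.41 for AMS and 0.89 for GRP19. It was -0.59, -0.34 and 0.40 for the phloem markers SUC2, APL and SEOR1, and -0.34 for the guard cell marker SLAC1. The part of such differences in the values of the 3 genes was not tested.

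Marker genes of the cell types that these genes are known from in A. thaliana moved in more than 1 direction. For the phloem, where AKT2 is known, 3 of 4 listed markers were measured. SUC2, the sucrose loader of companion cells, averaged -3.40 in root and -1.63 in flower bud and was at -1.77 ± 0.34 (limma adjusted p = 0.00354). APL, a phloem regulator, was at -1.15 ± 0.20 (adjusted p = 0.00227), whereas SEOR1, a sieve element protein, was higher in root at 2.20 ± 0.20 (adjusted p = 9.83e-05). APL averaged -0.17 in root and 0.98 in flower bud, and SEOR1 averaged 3.10 in root and 0.90 in flower bud, so the phloem markers gave no common direction.

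For guard cells, where KAT1 is known, 1 of 4 markers was measured. SLAC1, their anion channel, had levels of -8.04 to -6.83 over the roots, where it was well above background on 3 of 4 arrays, and -3.88 and -4.22 in flower bud samples A and B. It was higher in flower bud at -3.25 ± 0.34 (limma adjusted p = 1.75e-04). For the stele, where HKT1 is known, 2 of 5 were measured. XCP1, a protease of xylem vessels, was higher in root at 3.88 ± 0.17 (adjusted p = 2.85e-06) and LBD18, a regulator of vessel formation, higher in flower bud at -1.19 ± 0.29 (adjusted p = 0.00920). Green tissue markers were higher in flower bud for 3 of 3. What these cell types contribute to the 3 fold changes was not tested.

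Other genes of potassium and sodium transport and their regulators were described from lists of 58 codes, of which 25 were on the array, in 26 models, and 25 models were tested. Of these, 6 were called for root, 6 for flower bud and 13 in neither direction, against the 24.2% and 27.1% of all models given above. The counts by family below rest on few models and are not results about a family. Under spike-in scaling the counts were 3 in root and 11 in flower bud, with KUP2, KUP3, SOS1, NHX2 and TPK4 among the added calls. The median fold change of the 25 models, at the 75th percentile scaling, was -0.27, against 0.0039 over all models tested.

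KC1 (AT4G32650), the Shaker subunit that forms no channel alone and joins AKT1, AKT2 or KAT1 subunits in A. thaliana, went the other way from AKT2 and KAT1. Its levels were 2.17, 1.99, 1.92 and 2.16 in root replicates 1 to 4, and -5.63, -5.43, -4.96 and -5.20 on flower bud arrays 1 to 4. It was 165-fold higher in root at 7.37 ± 0.17 (limma adjusted p = 2.01e-07), with a 95% interval from 6.95 to 7.78 that lies apart from those of AKT2 and KAT1. It was well above background on all 8 arrays and lay between 6.64 and 7.61 in the 19 settings. The codes of KAT2 and AKT5, the other listed Shaker subunits, were in no model name.

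Of 5 measured KUP/HAK/KT transporters, 2 passed as higher in flower bud and 0 as higher in root, against 27.1% and 24.2% of all models. Their median fold change was -0.59. KUP1 (AT2G30070), a potassium transporter of this family, had levels of -1.84 to -1.72 over the roots and 0.27 and 0.12 in flower bud samples A and B, at -1.96 ± 0.12 (limma adjusted p = 1.43e-05). KUP11 (AT2G35060) was at -1.38 ± 0.12 (adjusted p = 7.22e-05), and at -2.09 under spike-in scaling. KUP2, which takes part in cell expansion in A. thaliana, was at -0.42 ± 0.15 (adjusted p = 0.0384), below 2-fold. KUP3 lay at -0.59 (adjusted p = 0.0939) and KUP9 at 0.83 (adjusted p = 0.0189), both under 2-fold and not called.

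Of the 3 two-pore potassium channels described, 1 was higher in root, against 24.2% of all models. TPK2 (AT5G46370), a channel of the vacuole membrane, was at 1.87 ± 0.18 (limma adjusted p = 1.08e-04), and at 1.16 under spike-in scaling, still called. TPK4 (AT1G02510), the family's plasma membrane channel in pollen, had levels of -4.77, -7.79, -7.50 and -8.05 in root replicates 1 to 4, and -5.41 and -4.07 in flower bud samples A and B. Root replicate 1 alone reached the flower bud values, and TPK4 was well above background on 3 of 4 root arrays. It did not pass, at -2.29 ± 0.97 (adjusted p = 0.0719), and passed without root replicate 1 at -3.04 (adjusted p = 0.00155, with 0.00155 to 0.311 over the alternatives). It also passed under spike-in scaling (-3.00) and in a fit to the authors' deposited table (-2.67, adjusted p = 0.00995). With the 8 arrays as separate samples it passed too (adjusted p = 0.0194, and 0.0404 with the replicate block). Those fits count the arrays of each flower bud pair as independent. The fold change there was again -2.29, and only the p was lower. With normexp background correction TPK4 was under 2-fold, at -0.83, and at -0.75 with quantile normalization added. TPK5 was at 0.43 and was not called.

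Of 6 measured models of NHX antiporters, which exchange sodium or potassium for protons, 2 passed for flower bud and 0 for root. Over all models tested, 27.1% and 24.2% did. NHX3 (AT5G55470) was 7.16-fold higher in flower bud at -2.84 ± 0.17 (limma adjusted p = 1.11e-05), with levels of -6.05 to -5.70 over the roots and -3.14 and -2.93 in flower bud samples A and B. With normexp background correction it stayed called but was smaller, at -1.79, and at -1.60 with quantile normalization added. SOS1, the antiporter that exports sodium at the plasma membrane, was at -0.57 ± 0.13 (adjusted p = 0.00704), under 2-fold, with -0.36 to -0.14 over the roots and 0.26 and 0.31 in samples A and B. Every flower bud array lay above every root array for SOS1, by a small step. The tissues were likewise separated, in one direction or the other, for every tested model of the lists except TPK4 and CBL2, called or not. Such separation, given also for AKT2, KAT1 and KC1, was thus common among the listed models and not particular to any of them. The share of all models separated in this way was not counted. NHX2, of the vacuole, was at -0.62 and NHX5, of Golgi and endosomes, at 0.94, both under 2-fold.

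The code of NHX8, a close relative of SOS1, stood in the names of 2 models. Model fgenesh2_kg.1__3533__AT1G14660.1 was called higher in flower bud at -1.03 ± 0.27 (limma adjusted p = 0.0124) and model fgenesh2_kg.1__1599__AT1G14660.1 was at -0.37 ± 0.16 (adjusted p = 0.0792). The call of the first was at the edge of 2-fold and was lost in 7 of 19 settings, among them those without root replicate 3 (-0.98), root replicate 4 (-0.87) and flower bud sample A (-0.91), with adjusted p of 0.00109 to 0.0792 over the alternatives. Whether its name marks the true counterpart cannot be read from the files.

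Of 4 measured KEA and CHX antiporters, 3 passed for root and 0 for flower bud, against 24.2% and 27.1% of all models. KEA6 (AT5G11800), of the Golgi network, was at 1.61 ± 0.11 (limma adjusted p = 2.61e-05), KEA2 (AT4G00630), of the plastid envelope, at 1.37 ± 0.15 (adjusted p = 2.60e-04) and CHX17 (AT4G23700), of endosomal membranes, at 1.30 ± 0.26 (adjusted p = 0.00379). Under spike-in scaling all 3 lost their calls, at 0.90, 0.66 and 0.59. KEA5 was at -0.27 (adjusted p = 0.0994).

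Of the regulators, 6 were tested, 1 higher in root and 2 in flower bud, against 24.2% and 27.1% of all models. AIP1 (AT1G07430), a protein phosphatase that binds AKT1, was 67.3-fold higher in flower bud at -6.07 ± 0.46 (limma adjusted p = 3.46e-05). Its levels were -4.09, -4.39, -4.12 and -5.66 in root replicates 1 to 4, and 1.57 and 1.44 in flower bud samples A and B. Root replicate 4 was the lowest root for AIP1 and KAT1, but also for KUP1, NHX2, KEA2 and other listed models. PP2CA (AT3G11410), a phosphatase that binds AKT2 and lowers its current in A. thaliana, was higher in flower bud as AKT2 was, at -2.76 ± 0.31 (adjusted p = 2.72e-04), with levels of -1.86 to -0.68 over the roots and 1.47 and 1.56 in samples A and B.

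MYB59 (AT5G59780), a transcription factor that acts in potassium transfer to the shoot, was 31.0-fold higher in root at 4.96 ± 0.22 (limma adjusted p = 2.71e-06). Of the calcium sensors, CBL3 was at 0.74 ± 0.13 (limma adjusted p = 0.00195), under 2-fold and so not called. CBL2 and CBL10, at -0.04 (adjusted p = 0.866) and 0.36 (adjusted p = 0.0748), were not called either. CIPK9, a kinase partner of CBL2 and CBL3, was well above background on 1 of 8 arrays and was not tested. The codes of CIPK23, CBL1 and CBL9, the kinase and sensors that activate AKT1 and HAK5, were in no model name.

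**Figure D2:**
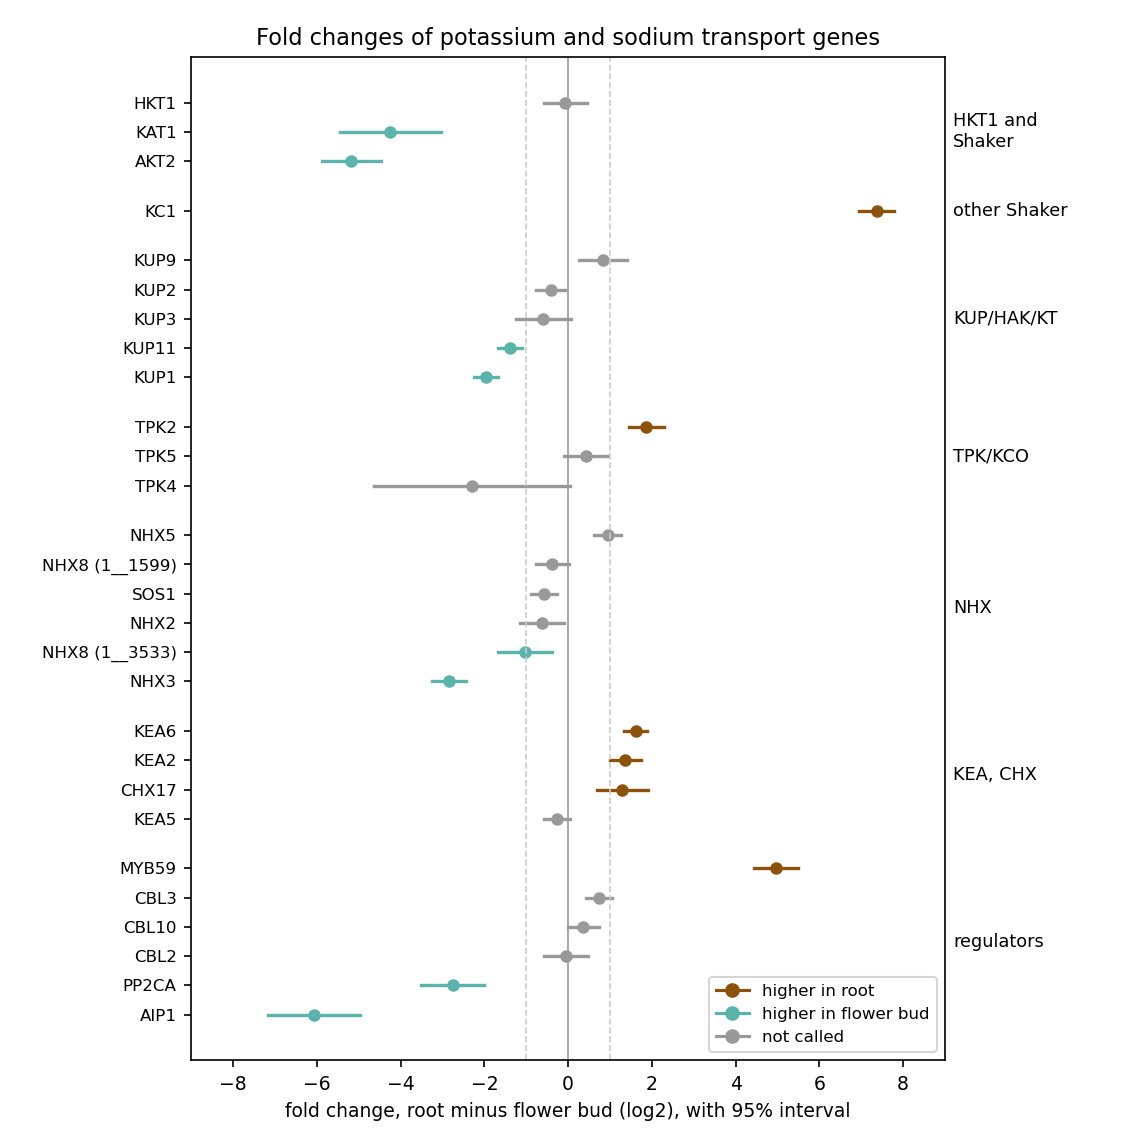
Fold changes (log2, root minus flower bud) with 95% intervals of HKT1, AKT2, KAT1 and the 25 tested models of the other lists, in n = 4 root and 2 flower bud samples; dashed lines mark 2-fold and colours mark the call. KC1 at 7.37 and AIP1 at -6.07 are the ends of the range, and HKT1 lies at -0.07.

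The gene models whose pattern over the 6 samples was most like that of each gene were found among 10183 models with a locus code that were well above background on all 8 arrays. The measure was the root mean square difference between levels centred on their own mean over the samples. HKT1 was nearest to AT2G43210 and to CLC-A (AT5G40890), a nitrate and chloride transporter of the vacuole, both at 0.086. AKT2 was nearest to AT3G48720, an acyltransferase that adds ferulate to cutin, at 0.17 and to AT3G26200, a cytochrome P450, at 0.18. KAT1 was nearest to VSP2 (AT5G24770), a vegetative storage protein, at 0.17 and to PIF4 (AT2G43010), a regulator of light and warmth responses, at 0.18. For AKT2 and KAT1 this likeness is mostly the shared step between tissues. HKT1 varied little over the 6 samples apart from its difference between the flower bud samples. For all 3 genes, the nearest of 10183 models are a description with no test.

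**Figure D3:**
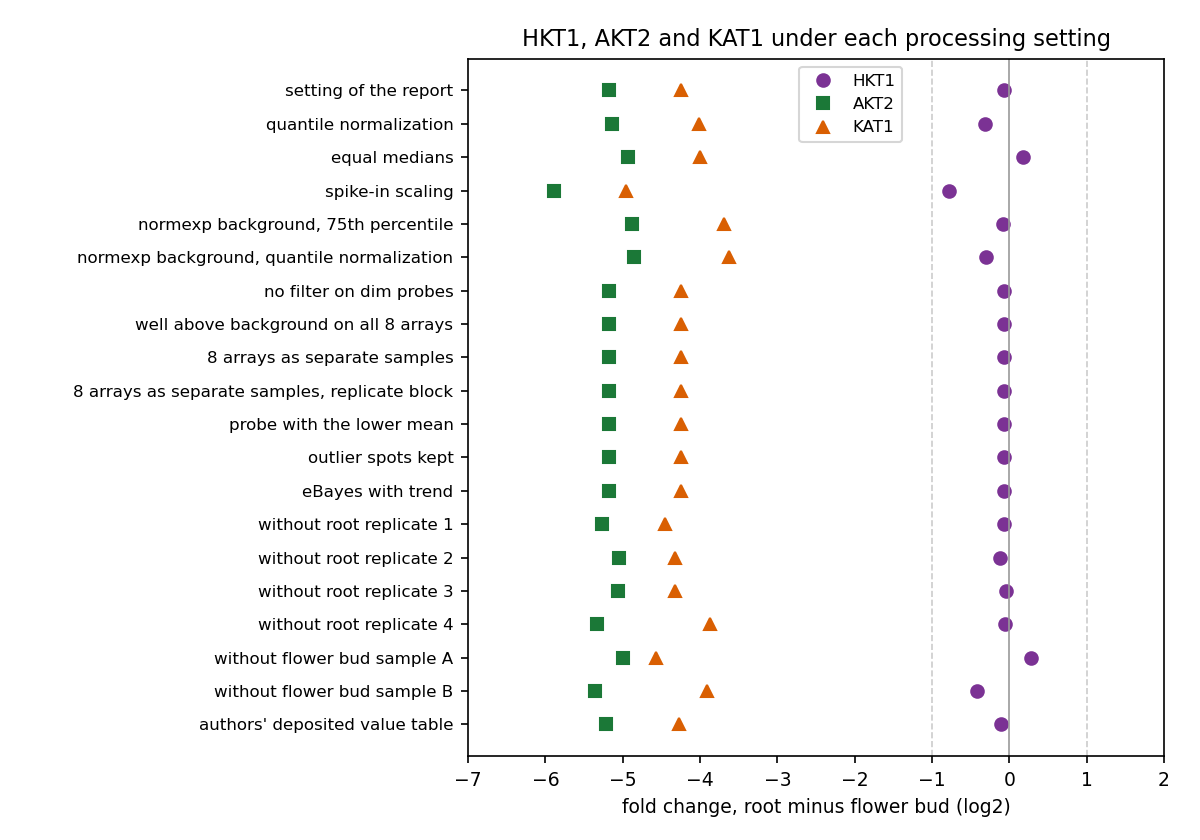
Fold changes (log2, root minus flower bud) of HKT1, AKT2 and KAT1 in the setting of the report and in the 19 alternatives; dashed lines mark 2-fold. AKT2 and KAT1 stay at -3.63 or lower throughout, and HKT1 stays between -0.78 and 0.28.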

How the data were processed

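The deposited scanner files hold the intensity of each spot after background subtraction and spatial detrending in Agilent Feature Extraction (version 10.10.1.1, per the file headers), with no scaling across arrays. All arrays were on 1 slide read in 1 scan. Each file lists 62976 features; leftover lines after them repeated listed spots and were not used. The authors' deposited value table holds log2 values; it matched the levels computed here, centred per probe on the median over arrays, in the same direction (r of 0.9988 to 0.9995), with column medians of -0.05 to 0.09. Its making is not described in the labels, so scale, centring and direction rest on that match.

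Spots marked as outliers were dropped, replicate spots averaged, and the log2 signal set to the 75th percentile of the array's non-control spots. Spots 0.5 or more of which were well above background made a probe so. Where a model had several probes, the brightest was used. Models well above background on all 4 arrays of a tissue were tested: 26420 tested, 5951 not. Flower bud arrays 1 and 2, and 3 and 4, were averaged because their differences were below spot scatter. The fit used limma 3.58.1 in R 4.3.3, two-sided, and had 4 residual and 2.38 prior degrees of freedom. Its code was run on simulated data with independent noise and few models changed. That setting differs from these data, so the run does not test the fit for them. The small number of arrays limits the precision.

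The genes, lists, tests and alternatives were chosen with earlier results of these data known. Named genes were all models of the 8 codes, in each list the 2 called models of largest fold change per direction, and the 2 nearest patterns per gene. KUP2, TPK4, SOS1, KEA5 and other list members beyond that rule were named to account for their list; 1 further listed gene is not reported here. Figures were drawn with matplotlib 3.10.9 in Python 3.11.15. Alternatives covered scaling, background correction, filters, the block, the deposited table and each sample left out; slide or scan could not be a block.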

Additional observations from a re-analysis of the deposited data

Results flagged for a closer look

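In the 28 tested models of these genes and lists, the 4 root replicates were searched for a value far from the others; chance marks about 1 in 20 groups. The flower buds, with 2 samples, were not searched. TPK4 was at -4.77 in root replicate 1, against -8.05 to -7.50 in the other roots. TPK5 was at 0.88 in root replicate 4, against 0.24 to 0.31. CBL3 was at 2.48 in root replicate 4, against 2.65 to 2.69.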

How the results depend on the processing

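AKT2 and KAT1 kept their direction and call in all 19 alternatives. HKT1 was called in none, with adjusted p from 0.105 to 0.895; its sign turned with equal medians (0.18) and without flower bud sample A (0.28; -0.42 without B), which leaves 1 flower bud sample assumed to vary like the roots. The cause was not tested. Not every alternative could move these fold changes. The filters on dim probes, the choice of probe, the kept outlier spots, the separate arrays, the block and the trend left all 3 unchanged. Those settings bear only on the adjusted p. Under spike-in scaling 3938 models were higher in root, against 6405, and flower buds held 72.7% of calls, against 52.8%; the listed models gave 3 calls for root and 11 for flower bud, against 6 and 6. There TPK5 (-0.28) and CBL10 (-0.35) turned sign. With equal medians CBL2 (0.20) did, and it also did without root replicate 3 (0.0028) or 4 (0.078; -0.15 without replicate 1). KUP9 (1.08) and NHX5 (1.19) were called with equal medians. With only models well above background on all 8 arrays, 21733 were tested and 4263 were higher in flower bud, against 7154; fewer models were tested.

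Leaving out 1 sample at a time gave 6127 to 6504 models higher in root and 6922 to 7279 in flower bud, listed models 6 in root and 5 to 7 in flower bud, HKT1 from -0.42 to 0.28, AKT2 from -5.35 to -5.001 and KAT1 from -4.57 to -3.87. Same-numbered root and flower bud arrays correlated at -0.06 to 0.04 in their deviations, so the numbers were not taken as pairs. With 8 separate arrays and the replicate block, AKT2 was at -5.18, KAT1 at -4.24 and HKT1 at -0.07 with no change of call, and 13717 models were called, against 13559. TPK4 passed there (adjusted p = 0.0404), as without the block (0.0194). Its fold change did not move, and both fits count the arrays of each flower bud pair as independent.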

Other observations

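In the authors' deposited table, whose values are centred per probe, AKT2 stood at -2.49, -3.12, -3.09 and -2.26 in root replicates 1 to 4 and at 2.69, 2.59, 2.34 and 2.26 on flower bud arrays 1 to 4. In the authors' deposited table KAT1 ranged from -3.37 to -1.62 over the root replicates and stood at 1.75, 1.62, 2.34 and 2.37 on flower bud arrays 1 to 4. HKT1 in the authors' deposited table ranged from -0.07 to 0.18 over the root replicates and from -0.25 to 0.50 over the flower bud arrays. Root replicate 4 was again the lowest root for KAT1 and the highest for AKT2.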
